A study of Homo sapiens with 4 samples.

Results

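N6-methyladenosine (m6A) is written on mRNA by a complex in which METTL3 carries the methyl transfer and METTL14 holds the RNA at its side. WTAP anchors this core, VIRMA is the scaffold that brings it to its sites, ZC3H13 keeps the complex in the nucleus, RBM15 and RBM15B bring it to particular transcripts, and CBLL1 (HAKAI) is a further subunit. FTO and ALKBH5 are the erasers that remove the methyl group. The transcripts of these partners and erasers are mRNAs themselves and can carry m6A, so m6A peaks were examined here in the 9 genes METTL14, WTAP, VIRMA, RBM15, RBM15B, ZC3H13, CBLL1, FTO and ALKBH5. A peak was assigned to a gene when its summit lay in an hg19 window set for the gene by its position, to the kb. The windows of METTL14 and FTO were shorter than the RefSeq gene, so peaks near an end of these genes could be missed. Of 9441 m6A peaks listed in control cells, 10 lay in these windows, and of 12252 listed after METTL3 knockdown, 14 did.

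MeRIP-seq pulls down RNA fragments with an antibody against m6A (MeRIP) and sequences them beside fragments that were not pulled down (Input). The 4 samples came from H1975, an established human lung adenocarcinoma (LUAD) cell line, in which lentivirus-delivered interference had run for 48 h according to the labels. Control cells carried a control shRNA (NC-sh) and the others a METTL3 shRNA (METTL3-sh), each with 1 Input and 1 MeRIP library. The METTL3 shRNA was designed on the sequence gctgcacttcagacgaattat, 21 nt long, which is shown because all differences below are between cells with and without it; its place in METTL3 was not analysed here. With 1 library per condition there was no replicate check, no p-value was computed, and the intervals of single peaks cover counting error only. Intervals of peak numbers, shares and medians treat the peaks as independent, although several lie in the same gene. They do not measure variation between samples. Whether the shRNA cells were a pool or a clone is not given in the sources used here. The labels give H1975, but the names of the peaks themselves carry H1299, another human lung cancer line, and which is right was not tested.

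Each listed peak has a fold enrichment, the MeRIP signal at the summit over the signal expected there from the Input, and no peak below 6 was listed in either condition. MeRIP reads covering each summit were recovered from the signal, with a median over all peaks of 169 in NC-sh against 132 in METTL3-sh and a lowest value of 25 against 24. The Input expectation is given in Input reads per 200 bp and is the highest of the local and genome-wide estimates, so it follows local RNA abundance only roughly. Local estimates come from windows of 200 bp, 1 kb or 10 kb, and the window used can differ between conditions. The counting intervals take no account of this. For fold enrichment and expectation they assume the fewest Input reads that fit the expectation, which makes them as wide as possible. A change inside such an interval could therefore lie beyond counting error if more Input reads were counted. For changes between conditions, reads and expectation were divided by the lowest expectation of their own library and are then called depth-scaled. This takes out sequencing depth. A change of m6A shared by all transcripts would be taken out as well. Equal depth-scaled reads therefore do not show that m6A was unchanged. METTL3, the target of the shRNA, had 1 peak in NC-sh at chr14:21968515-21969437 with 8148 reads, a fold enrichment of 6.44 and an Input expectation of 413, higher than at 99.9% of NC-sh peaks. No METTL3 peak was listed in METTL3-sh. Listed peaks keep running numbers in order of position, and an absent number may be a called peak left out of the list (6004 of 15445 numbers were absent from the NC-sh list and 8336 of 20588 from the METTL3-sh list). As the METTL3 fold enrichment lay close to the lowest listed value and 3 numbers were absent there from METTL3-sh, the lists do not show whether METTL3 RNA was lowered.

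In NC-sh 5 of the 9 genes carried a peak, and after knockdown 7 did. WTAP, VIRMA, RBM15, RBM15B and ZC3H13 had peaks in both conditions, METTL14 and FTO only in the METTL3-sh list, and CBLL1 and ALKBH5 in neither. The number of peaks was 10 in NC-sh (95% exact Poisson interval 4.80 to 18.4) and 14 in METTL3-sh (7.65 to 23.5), so the intervals overlap widely. All 10 NC-sh peaks of these genes shared at least 1 bp with a METTL3-sh peak, 100% with an exact Clopper-Pearson interval of 69.2 to 100%, against 76.2% of all NC-sh peaks. In METTL3-sh, 10 of the 14 peaks overlapped an NC-sh peak (71.4%, 41.9 to 91.6%), against 58.6% of all METTL3-sh peaks. Both background shares lie inside the intervals of these few peaks, and nothing particular to the 9 genes can be read from them. The summits of the 10 shared peaks lay a median of 13.5 bp apart, close to the 17 bp over all 6863 pairs, a pair being an NC-sh and a METTL3-sh peak that met no further peak.

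**Figure D1:**
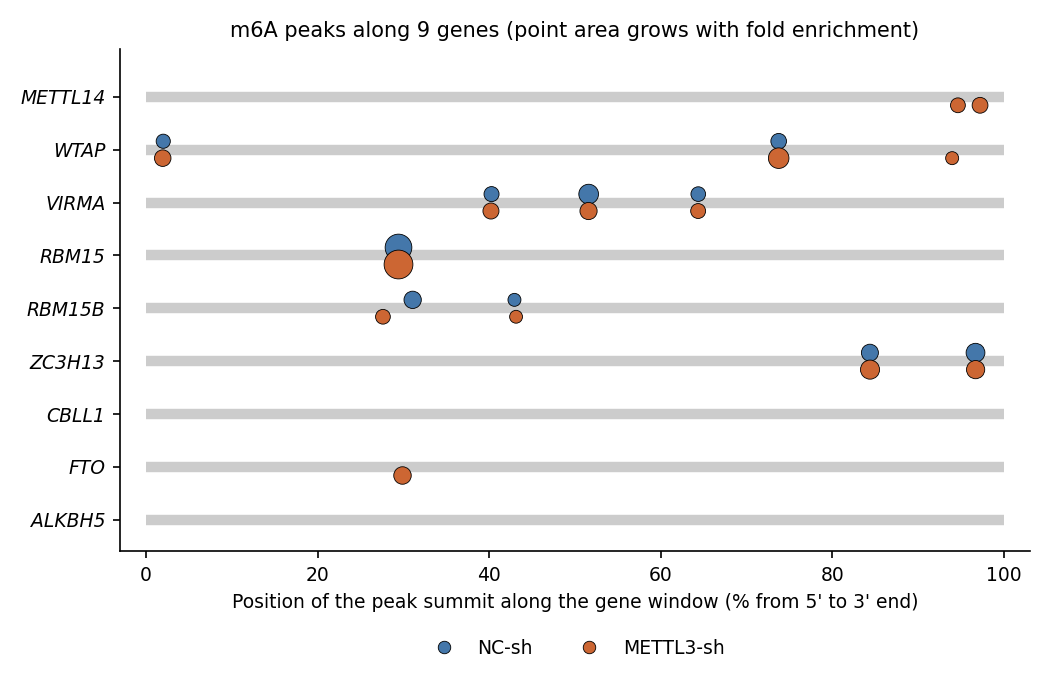
Position of each m6A peak summit along the window of its gene, in percent of the window from the 5′ to the 3′ end, with NC-sh above and METTL3-sh below each bar and point area growing with fold enrichment. METTL14 carried its peaks in the last part of the window and RBM15 and RBM15B in the first part, while CBLL1 and ALKBH5 had none; the RBM15 peak just beyond its window is not drawn, and VIRMA is placed on the minus strand from general knowledge.

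RBM15, an RNA-binding adaptor of the writer complex, held the most enriched peak of the 9 genes. It lay at chr1:110882570-110884938 in NC-sh, with almost the same bounds in METTL3-sh, and was 2369 bp long in both, longer than 99.8% of the peaks in either list. The summit was covered by 3898 reads in NC-sh against 4595 in METTL3-sh, and the summits were 1 bp apart. Fold enrichment reached 48.7 in NC-sh, above 98.0% of the peaks listed there, and 57.6 after knockdown, above 98.7%. Its log2 ratio, here and below always METTL3-sh over NC-sh, was 0.24 with a counting interval of -0.33 to 0.82, which covered both directions. Depth-scaled reads were higher in METTL3-sh by 0.19 on the log2 scale (0.13 to 0.25), which is beyond counting error but small. The summit stood 2.64 kb from the 5′ end of the 9 kb window. A second, weaker peak had its summit 28 bp (NC-sh) or 21 bp (METTL3-sh) beyond the 3′ end of the window, with fold enrichments of 7.27 and 8.80, and is therefore not counted among the members' peaks.

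RBM15B, the paralogue of RBM15 and a gene without introns, had a pair of neighbouring peaks in each condition. The first was at chr3:51429665-51430676 in NC-sh, with 1215 reads and a fold enrichment of 17, and at nearly the same place in METTL3-sh, with 1195 reads and a fold enrichment of 10.7. It was the only shared peak of the 9 genes whose fold enrichment was lower in METTL3-sh by at least 1.5-fold, and its log2 ratio of -0.67 (-0.91 to -0.43) lay beyond counting error. Depth-scaled reads hardly moved, with a log2 ratio of -0.07 (-0.19 to 0.04). The Input expectation was 22.4 against 39.8 (METTL3-sh), a depth-scaled log2 ratio of 0.63 (0.41 to 0.85). The lower fold enrichment thus went with a higher Input expectation at nearly equal MeRIP coverage. However, the NC-sh expectation fitted only the 10 kb window, while the METTL3-sh one could come from the 1 kb window. The counting interval does not cover such a difference, and its part in the change was not tested. The summits of this pair were 277 bp apart, the most of the 10 pairs. The second RBM15B peak, at chr3:51430929-51431645, was weak in both libraries, with a fold enrichment of 6.92 in NC-sh against 6.71 in METTL3-sh, and 631 against 669 reads. DCAF1 overlaps the 3′ part of RBM15B in RefSeq, from 4.58 kb after the low end of the gene, while the second summit lay 3.44 kb from the start of the window in NC-sh.

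WTAP had a peak at the start of the gene and another toward its end in both conditions. The 5′ peak was at chr6:160147302-160147820 in NC-sh, with a summit 0.627 kb into the window, 657 reads and a fold enrichment of 9.39, and in METTL3-sh it had 639 reads and a fold enrichment of 15.0. The log2 ratio was 0.67, and its counting interval of -0.002 to 1.34 just included 0. The other shared peak was at chr6:160169143-160170057, with the same summit position in both libraries, 620 NC-sh reads and 637 METTL3-sh reads. Its fold enrichment was 12.7 in the control and 26.4 after knockdown, 2.07-fold higher, with a log2 ratio of 1.05 (0.24 to 1.86). This was the largest change among the 10 pairs and lay above 91.7% of all pairs. MeRIP coverage was again almost equal, with depth-scaled log2 ratios of -0.09 (-0.25 to 0.07) and -0.01 (-0.17 to 0.15). The Input expectation was 22.0 in NC-sh against 14.6 in METTL3-sh at the 5′ peak and 15.0 against 7.80 at the other. Depth-scaled log2 ratios were -0.79 (-1.48 to -0.10) and -1.14 (-2.0 to -0.28). The NC-sh expectations could come from the 200 bp window but the METTL3-sh ones could not, so the windows may differ. A further WTAP peak, at chr6:160175943-160176556, was listed in METTL3-sh only, 1.87 kb from the 3′ end of the window, with 592 reads, an Input expectation of 30 and a fold enrichment of 6.98, above only 17.1% of the peaks there. SOD2 spans all of WTAP in RefSeq on the opposite strand, and since the lists carry no strand, SOD2 and WTAP reads cannot be told apart.

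VIRMA, the scaffold subunit, had 3 peaks in the middle of its window in both conditions. Numbered from the 5′ end with VIRMA on the minus strand, the first was at chr8:95538701-95539527, with 769 reads in NC-sh against 995 in METTL3-sh and fold enrichments of 11.4 and 13.7. The second was at chr8:95531226-95531608 and was the best covered of the 3, with 1956 and 1922 reads and fold enrichments of 23.7 and 16.7. The last was at chr8:95522764-95523039, with 127 and 241 reads and fold enrichments of 10.5 and 11.1. Depth-scaled reads were higher in METTL3-sh beyond counting error at the first peak, with a log2 ratio of 0.32 (0.19 to 0.46), and at the last, with 0.88 (0.56 to 1.20), but not at the second, with -0.07 (-0.17 to 0.02). At the last peak the Input expectation was 7 in METTL3-sh against 3.06 in NC-sh, and the latter fitted only the 10 kb window. The depth-scaled log2 ratio was 0.99, with a counting interval of -0.10 to 2.09 that covered both directions. Fold enrichment hardly differed there (log2 ratio 0.08, -0.92 to 1.08). At all 3 peaks the counting interval of the fold enrichment ratio, at the fewest possible Input reads, covered both directions. The 3 peaks therefore moved unequally in MeRIP coverage although they lie in the same gene. Changes beyond counting error were common over all pairs, with 33.7% higher and 21.0% lower, so nothing particular to VIRMA can be read from this.

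ZC3H13 had its peaks near the 3′ end, with summits 15.5 kb and 3.29 kb from the end of a 99 kb window in NC-sh. The first, at chr13:46543303-46543647, had 542 NC-sh and 541 METTL3-sh reads, with fold enrichments of 16.2 and 22.0. The second, at chr13:46531096-46531460, had 578 and 587 reads, with fold enrichments of 21.1 and 19.5. Depth-scaled reads had log2 ratios of -0.05 (-0.23 to 0.12) and -0.03 (-0.19 to 0.14). Input expectations were only 8 and 10 reads per 200 bp, the higher one in NC-sh at the first peak and in METTL3-sh at the second. Taken as 8 and 10 counted reads, the fewest possible, they gave fold enrichment counting intervals of -0.78 to 1.65 and -1.33 to 1.10 (log2). In METTL3-sh the second peak was 603 bp long against 365 bp in NC-sh, the most unequal lengths among the 10 pairs.

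**Figure D2:**
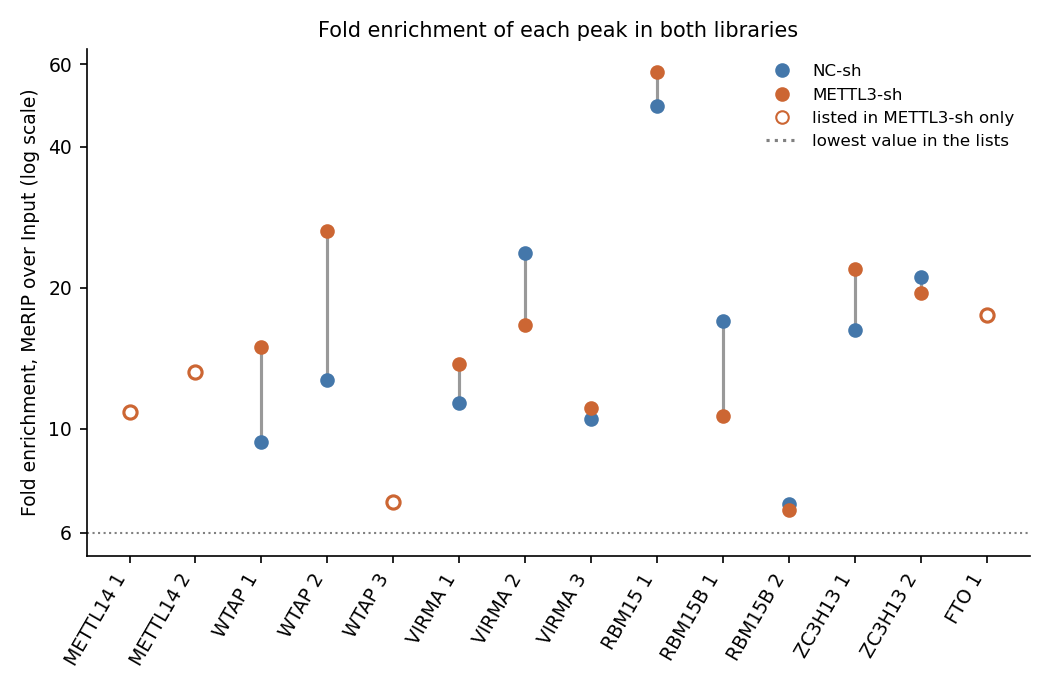
Fold enrichment of MeRIP over Input (log scale) for each peak, numbered from the 5′ end of its gene, in NC-sh and METTL3-sh, with a line joining the values of a shared peak and open points for peaks listed in METTL3-sh alone. Both WTAP shared peaks were higher in METTL3-sh, the first RBM15B peak was lower (10.7 against 17), and RBM15 was highest in both.

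METTL14, the partner that forms the catalytic core with METTL3, had no peak in NC-sh and 2 in METTL3-sh, both at the 3′ end of its 27 kb window. They were at chr4:119631357-119631815 and chr4:119632049-119632411, with summits 1.45 kb and 0.754 kb from the window's end. Their summits were covered by 87 and 55 reads, fewer than at the peaks of the other writer partners. Fold enrichments were 10.9 and 13.2, on Input expectations of 2 and 0.588, the second being the lowest possible in that library, and −log10 q was 23.6 and 20.2. The NC-sh peaks on either side of the gene bore consecutive numbers with 0 absent between them. No NC-sh peak that was left out can therefore have stood at METTL14. The peaks of METTL14 were thus called in METTL3-sh alone. The lists do not give the NC-sh reads at METTL14, so whether a peak could have been called there was not tested.

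FTO, the first m6A eraser to be described, had 1 peak, in METTL3-sh, at chr16:53859797-53860329. Its summit lay 123 kb from the 5′ end of a 412 kb window, with 247 reads, a fold enrichment of 17.5 and an Input expectation of 4.20. In NC-sh no FTO peak was listed, and 1 peak number was absent between the NC-sh peaks around the gene, so a removed NC-sh peak could have stood there. ALKBH5, the other eraser, had no listed peak in NC-sh or METTL3-sh, with 2 and 5 numbers absent around the gene. CBLL1 had none either, with 2 NC-sh numbers and 1 METTL3-sh number absent. The nearest NC-sh peak to CBLL1 had its summit 498 bp before the window, with 77 reads and a fold enrichment of 6.55, while the nearest METTL3-sh peak on that side was 83.4 kb away. For these genes the lists show only that no peak passed the limits on fold enrichment and q. Of the METTL3-sh peaks in the 9 genes, 4 of 14 (28.6%) had no NC-sh counterpart, namely those of METTL14, FTO and the 3′ end of WTAP, against 41.4% of all METTL3-sh peaks.

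Over the 10 shared peaks, fold enrichment was higher in METTL3-sh at 6 and lower at 4. The median log2 ratio was 0.16, with an order-statistic interval of -0.51 to 0.67, beside 0.13 over all 6863 pairs. At least 1.5-fold higher were 2 of 10, both in WTAP, against 22.9% of all pairs, and at least 1.5-fold lower was 1 of 10, in RBM15B, against 12.8%. With intervals at the fewest possible Input reads, 1 peak changed upward and 1 downward beyond its interval, against 16.2% of all pairs in either direction. Each of these counts is near its background.

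Fold enrichment combines MeRIP reads and the Input expectation, and each was compared in turn. Depth-scaled reads at the summit had a median log2 ratio of -0.02 (-0.07 to 0.32) and an SD of 0.30 over the 10 peaks, beside a median of 0.08 and an SD of 0.46 over all pairs. They were higher in METTL3-sh beyond counting error at 3 peaks (33.7% of all pairs) and lower at 0 (21.0% of all pairs). At least 1.5-fold higher was 1 peak, the last of VIRMA (12.5% of all pairs), and 0 were at least 1.5-fold lower (6.57%). The Input expectation, depth-scaled, had an SD of 0.65, beside 0.85 over all pairs, so it spread more than the reads here as it did over all pairs. It had a median of 0.07 (-0.79 to 0.63) and a range from -1.14 at WTAP to 0.99 at VIRMA. It was at least 1.5-fold higher at 2 peaks and at least 1.5-fold lower at 2, against 20.7% and 21.1% of all pairs. Expectations at these peaks could rest on as few as 7 Input reads, and their part in the changes of fold enrichment was not tested.

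**Figure D3:**
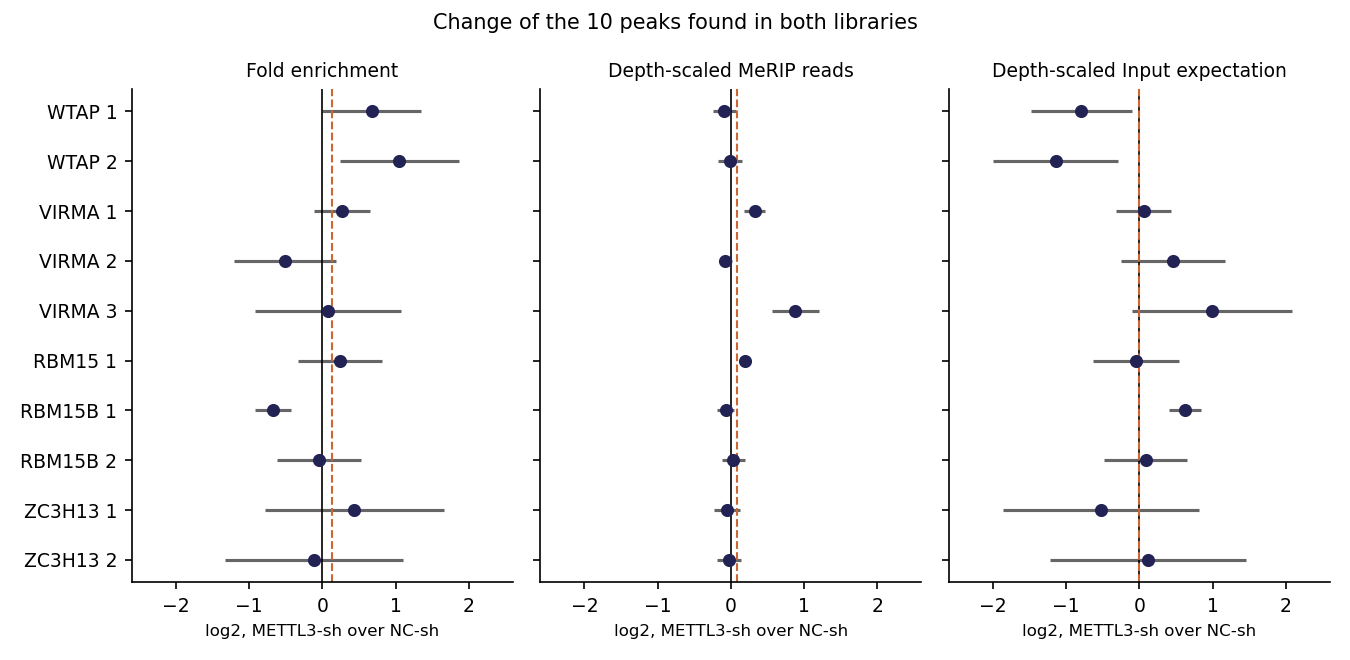
Change (log2, METTL3-sh over NC-sh) at the 10 shared peaks for fold enrichment, depth-scaled MeRIP reads and depth-scaled Input expectation, with 95% counting intervals and dashed lines at the median of all 6863 pairs. MeRIP reads ranged from -0.09 to 0.88, while the Input expectation ranged from -1.14 to 0.99.

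**Figure D4:**
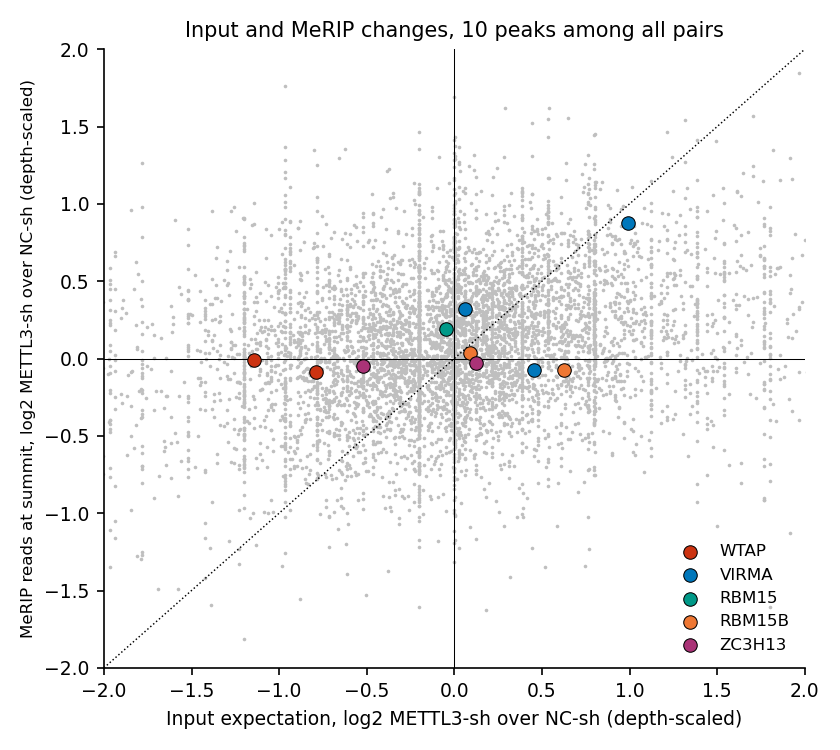
Depth-scaled change in Input expectation (x axis) and in MeRIP reads (y axis), both as log2 of METTL3-sh over NC-sh, for all pairs of peaks (grey, 221 outside the axes) and the 10 shared peaks (coloured by gene); on the dotted diagonal both change alike. The WTAP peaks lie to the left at a MeRIP change near 0 and the last VIRMA peak lies close to the diagonal.

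Along the genes, the peaks did not gather at 1 end. Without VIRMA, whose strand is not in the reference table used, the median distance from summit to the 3′ end of the window was 6.36 kb over 7 peaks in NC-sh and 5.79 kb over 11 in METTL3-sh. Of the 18 summits of both lists, where a shared peak counts once in each list, 5 were within 4 kb of the 3′ end. These were in METTL14, ZC3H13 and WTAP, and the ZC3H13 peak was counted in both lists. RBM15B had its listed peaks nearer the 5′ end of the window than its 3′ end, as had the RBM15 peak inside the window, while the weaker RBM15 peak described above stood at the 3′ end. Windows differ from RefSeq gene spans by up to 6 kb in length, so distances to an end of a gene are good to a few kb only. Exons, stop codons and the GGAC letters that mark many m6A sites were not analysed here, as no hg19 sequence or annotation was used.

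Of 10 further genes of the m6A pathway, METTL3, METTL16 and the readers YTHDF1, YTHDF2, YTHDF3, YTHDC1, YTHDC2, IGF2BP1, IGF2BP2 and IGF2BP3, 6 had a peak in NC-sh, 10 peaks in all, and 6 did in METTL3-sh, 11 in all. Shared peaks numbered 6, with a median log2 ratio of fold enrichment of -0.11. Overlapped peaks made up 60% of the NC-sh and 54.5% of the METTL3-sh peaks of these genes, against 76.2% and 58.6% of all peaks. The 6 shared peaks were in YTHDF1, YTHDF2, YTHDF3, YTHDC1 and IGF2BP3. Of these, 1, in IGF2BP3, was at least 1.5-fold lower in METTL3-sh (7.20 against 27.1 in NC-sh), beside 12.8% of all pairs. Its summits were 395 bp apart, and its expectations could rest on as few as 7 (NC-sh) and 5 (METTL3-sh) Input reads. The most enriched of the list was the first peak of the reader YTHDF3, with a fold enrichment of 49.2 (NC-sh) and 64.0 (METTL3-sh), the same order of height as RBM15. METTL16, IGF2BP1 and IGF2BP2 had no listed peak in either condition. YTHDC2 had a listed peak in METTL3-sh alone.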

How the data were processed

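MeRIP-seq of 1 Input and 1 MeRIP library per condition was used as 1 peak list per MeRIP library. The submitters' processing notes name TopHat2 2.0.13, MACS2 2.1.0.20151222 and hg19, without roles; peaks carry no strand or gene name. The deposited pileup is a signal, MeRIP reads scaled per library. Fold enrichment was deposited as a ratio to the local Input expectation with a pseudocount of 1, and −log10 p and −log10 q are deposited per peak.

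Reads were pileup over the value of 1 read (0.327 in NC-sh, 0.364 in METTL3-sh). Expectations followed from pileup and fold enrichment, with a lowest value of 0.512 and 0.588, and lay on steps of 0.02, from which the fewest possible Input reads and a counting interval for fold enrichment (normal error) were taken. Read ratios have exact conditional binomial intervals. Total library depth is unknown; the relative depth of METTL3-sh over NC-sh was 1.03 for MeRIP and 1.15 for Input.

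Members and lists were chosen with earlier results of these data known. All peaks of the 9 members are named. Window lengths were within 6 kb of RefSeq (GRCh38.p14) gene spans for 19 of 19 genes; windows of the 10 other genes were entered from general knowledge. Strand and overlapping genes came from RefSeq, the strands of VIRMA, YTHDF3 and IGF2BP1 from general knowledge. Pairing was run on a simulated list, a subset of the NC-sh peaks moved slightly at unchanged length. Such a list checks the code and cannot show how well split or distant peaks are paired. Python 3.11.15, numpy 2.4.6, pandas 2.3.3, scipy 1.17.1 and matplotlib 3.10.9 were used.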

Additional observations from a re-analysis of the deposited data

How the results depend on the processing

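Of 53 values recomputed under alternatives, 49 moved by less than their interval, or for counts by less than 1.5 times. Restricting the lists to a fold enrichment of at least 12 left 6 NC-sh and 9 METTL3-sh peaks in the 9 genes, by construction. Calling pairs at 2-fold in place of 1.5-fold left 1 higher (WTAP) and 0 lower. A −log10 q of at least 20, wider windows, stricter overlaps, pileup or −log10 q in place of fold enrichment, and the highest peak per gene moved no result past its interval, and neither did placing VIRMA on the minus strand, which was chosen after seeing the data. With few peaks these intervals are wide. No paired analysis was possible because there was only 1 MeRIP library to a condition. Depth may limit the Input side, as expectations could rest on few reads.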
